A study of Homo sapiens with 48 samples.

Results

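The collagen genes are the 44 protein-coding genes, of 48898 genes counted, whose symbol is COL, a number, A and a number, COL1A1 to COL28A1. They were chosen by name alone, and RNA was sequenced from 48 libraries in 16 groups of 3. IMR-90 is a line of human fetal lung fibroblasts and SK-MEL-103 a human melanoma line; both were grown in DMEM with serum. Doxorubicin, which damages DNA through topoisomerase II, was given at 200 nM for 48 h to make cells senescent, and the remaining cells were left to proliferate.

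In each line, doxorubicin-treated cells carried small interfering RNA (siRNA) against the mitofusins MFN1, MFN2 or both (siMFN1+2), against the mitochondrial adaptor MAVS, or a control siRNA, and proliferating cells carried the control siRNA. These cells were harvested on day 7. In a further IMR-90 experiment harvested on day 9, doxorubicin-treated cells received 48 h of MFI8 (20 µM), of BI (10 µM) or of DMSO alone, and proliferating cells had DMSO. The labels give MFI8 as an inhibitor and BI as an activator of mitofusins, with code names only. Whether the 3 libraries of a group come from separate cultures is not stated, so p-values measure only the spread between these libraries, which may be technical. Each line is a single line in culture, and no other fibroblast or melanoma line was analysed here.

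Collagens are secreted proteins whose chains wind around each other in the endoplasmic reticulum, where prolyl and lysyl hydroxylases modify them. Fibril-forming collagens, with type I in the lead, give lung and other connective tissues their tensile strength, and fibroblasts are their main source. Type IV collagen forms the sheet-like network of basement membranes, type VI forms beaded filaments around cells, and type VII anchors epithelium to the tissue beneath it. Senescent cells are known for altered secretion, matrix proteins included.

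The genes of type IV chains lie in head-to-head pairs that share the DNA between their starts. The stretches of the pairs whose members both reached a mean of 10 CPM (defined below) in an IMR-90 group are shown for that reason. They are RefSeq sequence on GRCh38.p14, 5′ to 3′ on the strand given, with every CCAAT and ATTGG (its reverse complement) and every GGGCGG and CCGCCC (a GC box and its reverse complement) in capitals.
COL4A1 to COL4A2, chr13:110307158-110307283, plus strand: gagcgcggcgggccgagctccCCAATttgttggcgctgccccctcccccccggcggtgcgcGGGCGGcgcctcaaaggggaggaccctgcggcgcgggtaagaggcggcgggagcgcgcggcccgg
COL4A5, chrX:108439588-108439837, plus strand: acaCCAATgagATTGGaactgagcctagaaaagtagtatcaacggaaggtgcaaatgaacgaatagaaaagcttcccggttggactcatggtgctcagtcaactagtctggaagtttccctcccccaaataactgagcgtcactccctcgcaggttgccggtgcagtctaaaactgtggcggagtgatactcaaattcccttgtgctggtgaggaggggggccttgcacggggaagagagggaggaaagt
COL4A6, chrX:108439459-108439708, minus strand: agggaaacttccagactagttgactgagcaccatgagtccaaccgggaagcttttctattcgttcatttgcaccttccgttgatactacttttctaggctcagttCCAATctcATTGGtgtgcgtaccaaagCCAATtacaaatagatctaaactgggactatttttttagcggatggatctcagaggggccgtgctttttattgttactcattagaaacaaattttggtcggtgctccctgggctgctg
The first stretch is the whole 126 bases between the RefSeq starts of COL4A1 and COL4A2. The other stretches are the 250 bases before each start, which overlap because the starts used for COL4A6 and COL4A5 lie 379 bases apart. Another RefSeq start of COL4A6 lies 1415 bases from that of COL4A5. The COL4A4 and COL4A3 starts lie 418 bases apart on chromosome 2. The 126 bases hold 1 CCAAT and 1 GC box, and the stretch before COL4A5 holds 2 CCAAT or ATTGG and no GC box. Over 300-base windows from 250 bases before to 50 after the start, CCAAT on either strand was found in 14 of the 44 windows of the 32 collagen genes matched (31.8%), against 34.6% of 35116 windows of all genes. The GC box was found in 24 of the 44 windows (54.5%), against 45.0% of all windows, and TATAAA on either strand in 8 (18.2%), against 11.5%. A match is a run of letters and not a tested binding site.

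Libraries held 15206115 to 79204217 counts, and depth followed the replicate number in every group. Levels are CPM, counts scaled to a common library size, with library sizes adjusted by the TMM method over all 48 libraries. All 9 markers of a fibroblast list reached 1 CPM in IMR-90 cells, where they summed to 5168 to 6422 CPM after doxorubicin and 7955 to 11110 CPM in proliferating cells at day 7. In SK-MEL-103 the same list summed to 7152 to 7661 CPM after doxorubicin and 6762 to 8498 CPM in proliferating cells, with 5 and 4 of 9 markers at 1 CPM, and VIM, the vimentin filament gene, averaged 7292 and 7615 CPM of those sums. In SK-MEL-103, 4 of 10 melanocyte lineage markers reached 1 CPM after doxorubicin and 5 of 10 in proliferating cells, at sums of 584 to 667 CPM and 445 to 549 CPM. The leukocyte list summed to at most 6.63 CPM in any of these libraries, and an epithelial list to 147 to 224 CPM after doxorubicin and 205 to 265 CPM in proliferating IMR-90 cells at day 7. A pericyte and smooth muscle list of 4 genes was lower with doxorubicin in IMR-90, at 191 to 363 CPM in treated and 484 to 679 CPM in proliferating cells at day 7, and at 129 to 289 CPM in treated and 305 to 498 CPM in proliferating cells at day 9. The sum of 4 proliferation markers was 48.2 to 92.8 CPM after doxorubicin, against 1273 to 1539 CPM in proliferating IMR-90 cells, so the groups differ in cycling. The part of these lists in the collagen results was not tested. Less collagen RNA per cell and fewer cells that make it cannot be told apart in such bulk RNA. Proliferating IMR-90 library 2 of day 7 stood apart from the other 2 in fibril-forming and type VI genes, as did library 1 of siMAVS, and values without them are given beside the genes and counts whose call or size changes most.

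**Figure D1:**
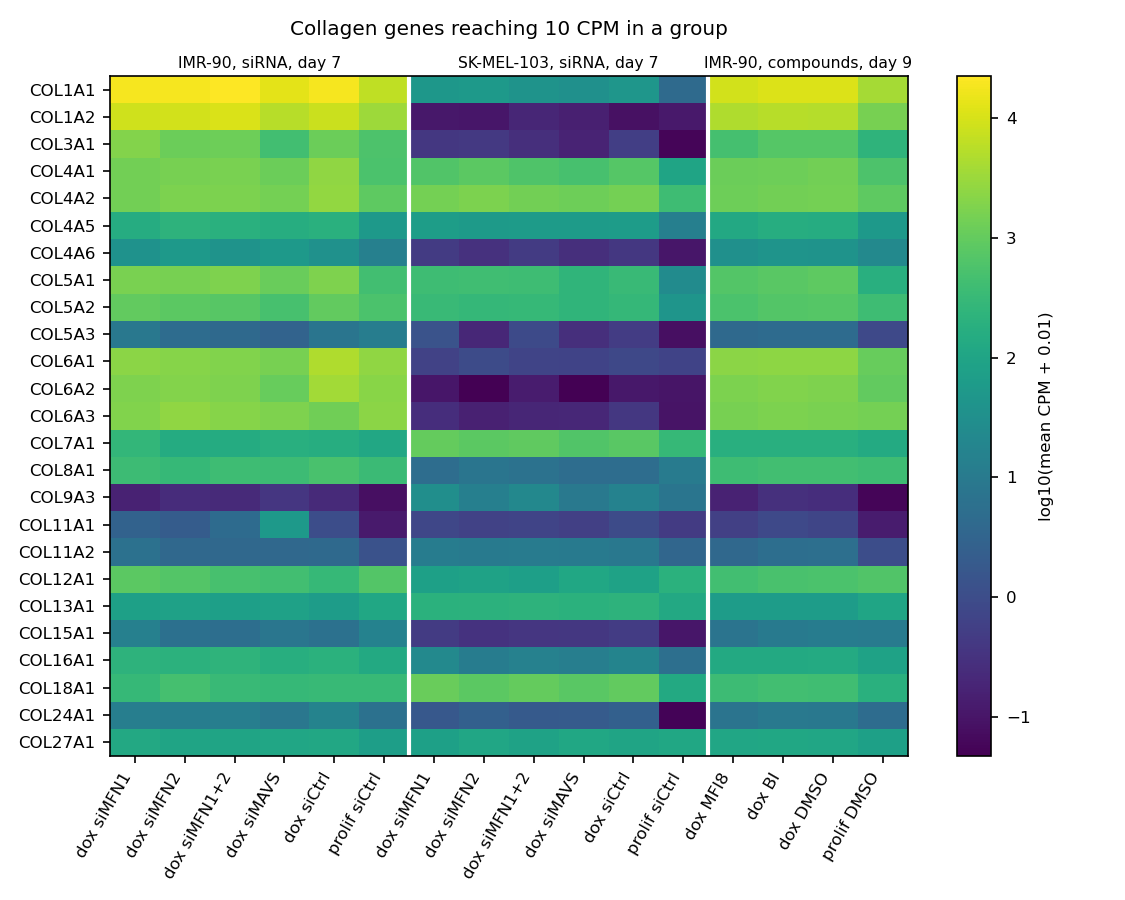
Mean level of each of the 25 collagen genes that reached 10 CPM in a group (rows), on a colour scale of log10(mean CPM + 0.01), in the 16 groups (columns, 3 libraries each). COL1A1, COL1A2 and the type VI rows are among the highest in IMR-90 columns; in SK-MEL-103 columns COL1A2, COL3A1 and the type VI rows are below 1 CPM and COL1A1 is in the middle of the scale, while COL4A1, COL4A2, COL7A1, COL13A1 and COL18A1 are well above the floor in both lines.

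The 2 lines differed in the collagens they expressed. Of the 44 genes, 25 reached a mean of 10 CPM in at least 1 group, 23 of them in IMR-90, 15 in SK-MEL-103 and 13 in both, while COL9A3, a chain of the cartilage collagen IX, and COL11A2, a minor fibril chain, did so in SK-MEL-103 only. Another 8 genes peaked between 1 and 10 CPM (COL2A1, COL4A4, COL8A2, COL9A2, COL10A1, COL14A1, COL17A1 and COL25A1). The other 11 stayed below 1 CPM in every group (COL4A3, COL6A5, COL6A6, COL9A1, COL19A1, COL20A1, COL21A1, COL22A1, COL23A1, COL26A1 and COL28A1). Per kilobase of transcript, COL1A1 led in doxorubicin-treated IMR-90 cells at day 7 with a mean level of 2838 CPM per kb, followed by COL1A2 with 1489.8, COL6A1 with 1147 and COL6A2 with 1039. In doxorubicin-treated SK-MEL-103 cells the leaders were COL4A2 with a mean level of 230 CPM per kb, COL18A1, the source of endostatin, with 165, COL4A1 with 106 and COL7A1 with 83.8.

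The type I pair shows the contrast between the lines. COL1A1 (chromosome 17, 50183289 to 50201632, minus strand) encodes the α1 chain of type I collagen and had 42.2, 36.7 and 58.1 CPM in doxorubicin-treated SK-MEL-103 cells, against 15906, 17203 and 24162 CPM in doxorubicin-treated IMR-90 cells. COL1A2, its partner chain, held 11 counts over the 3 SK-MEL-103 libraries and 1056346 over the 3 IMR-90 libraries. The SK-MEL-103 libraries were below all IMR-90 libraries for both genes. Under edgeR's quasi-likelihood (QL) test, with p-values adjusted over all genes by Benjamini and Hochberg (BH), 6 of 41 tested collagen genes were higher and 28 lower in doxorubicin-treated SK-MEL-103 than in doxorubicin-treated IMR-90 cells at an adjusted p below 0.05, against 63.4% of all genes called in either direction. Between proliferating cells, 5 were higher and 22 lower in SK-MEL-103, with 51.8% of all genes called.

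The higher genes after doxorubicin were COL9A3 (log2 difference 6.37), COL7A1 (2.29), COL13A1 (1.73), COL18A1 (1.62), COL22A1 (1.18) and COL11A2 (1.09). The lowest log2 differences were those of COL1A2 (-16.74), COL6A2 (-14.98), COL6A1 (-12.59), COL6A3 (-11.83), COL3A1 (-11.24) and COL1A1 (-8.70). COL18A1 shares 16.4% of its exon bases with SLC19A1 on the opposite strand, and the strand setting of the counting is not given, so reads of the neighbour may be among its counts.

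**Figure D2:**
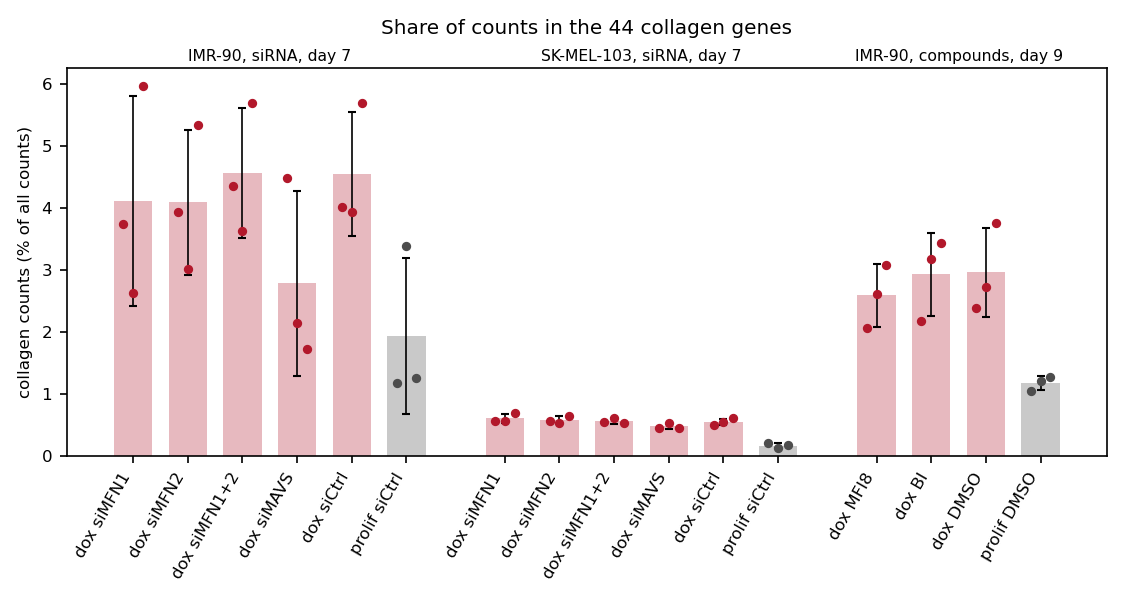
Counts of the 44 collagen genes as a percentage of all counts (vertical axis, from 0), for each library (points) with the group mean and SD, in the 3 experiments. Doxorubicin-treated IMR-90 groups average 2.58 to 4.55%, proliferating IMR-90 groups 1.17 to 1.93%, doxorubicin-treated SK-MEL-103 groups 0.471 to 0.598% and proliferating SK-MEL-103 cells 0.161%.

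Collagen genes took a larger share of all counts after doxorubicin. In IMR-90 at day 7 the share was 4.01, 3.93 and 5.69% in doxorubicin-treated libraries with control siRNA, against 1.16, 3.38 and 1.25% in proliferating libraries. All treated libraries were above all proliferating ones, and proliferating library 2 came closest. At day 9 the share was 2.38, 2.73 and 3.76% in doxorubicin-treated cells in DMSO, against 1.04, 1.20 and 1.27% in proliferating cells in DMSO. In SK-MEL-103 it was 0.494, 0.533 and 0.598% in doxorubicin-treated cells, against 0.199, 0.121 and 0.162% in proliferating cells. The groups did not overlap in any of these 3 comparisons, and COL1A1 alone made up 40.0% of the collagen counts of doxorubicin-treated IMR-90 cells at day 7. Without COL1A1 the day 7 share was 2.74 ± 0.71% in treated and 1.36 ± 0.88% in proliferating IMR-90 cells (SD, n = 3 each). Library values without COL1A1 are not given, so the separation at day 7 is shown only with COL1A1 included.

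Across the 3 doxorubicin comparisons most called collagen genes were higher in treated cells. In IMR-90 at day 7, 39 of the 44 genes passed the filter on low counts, and 19 were higher and 1 lower in doxorubicin-treated than in proliferating cells (51.3% called, against 51.8% of all genes). In SK-MEL-103, 24 were higher and 3 lower of 33 tested (81.8%, against 60.4% of all genes), and in IMR-90 at day 9, 26 were higher and 1 lower of 40 tested (67.5%, against 55.9%). For higher calls alone the shares of all genes were 27.4% in IMR-90 at day 7, 29.8% in SK-MEL-103 and 28.8% at day 9. The median log2 fold change of the tested collagen genes was 1.40, 2.17 and 1.55 in that order, against 0.09, 0.03 and 0.10 over all genes tested. Genes that are low in one group and passed the filter through the other had to differ, so these counts and medians are a description. At day 7 the number called in IMR-90 was 29 without proliferating library 2 and 16 without proliferating library 1. The shares of all genes called in those fits are not given, so these numbers are a description too.

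**Figure D3:**
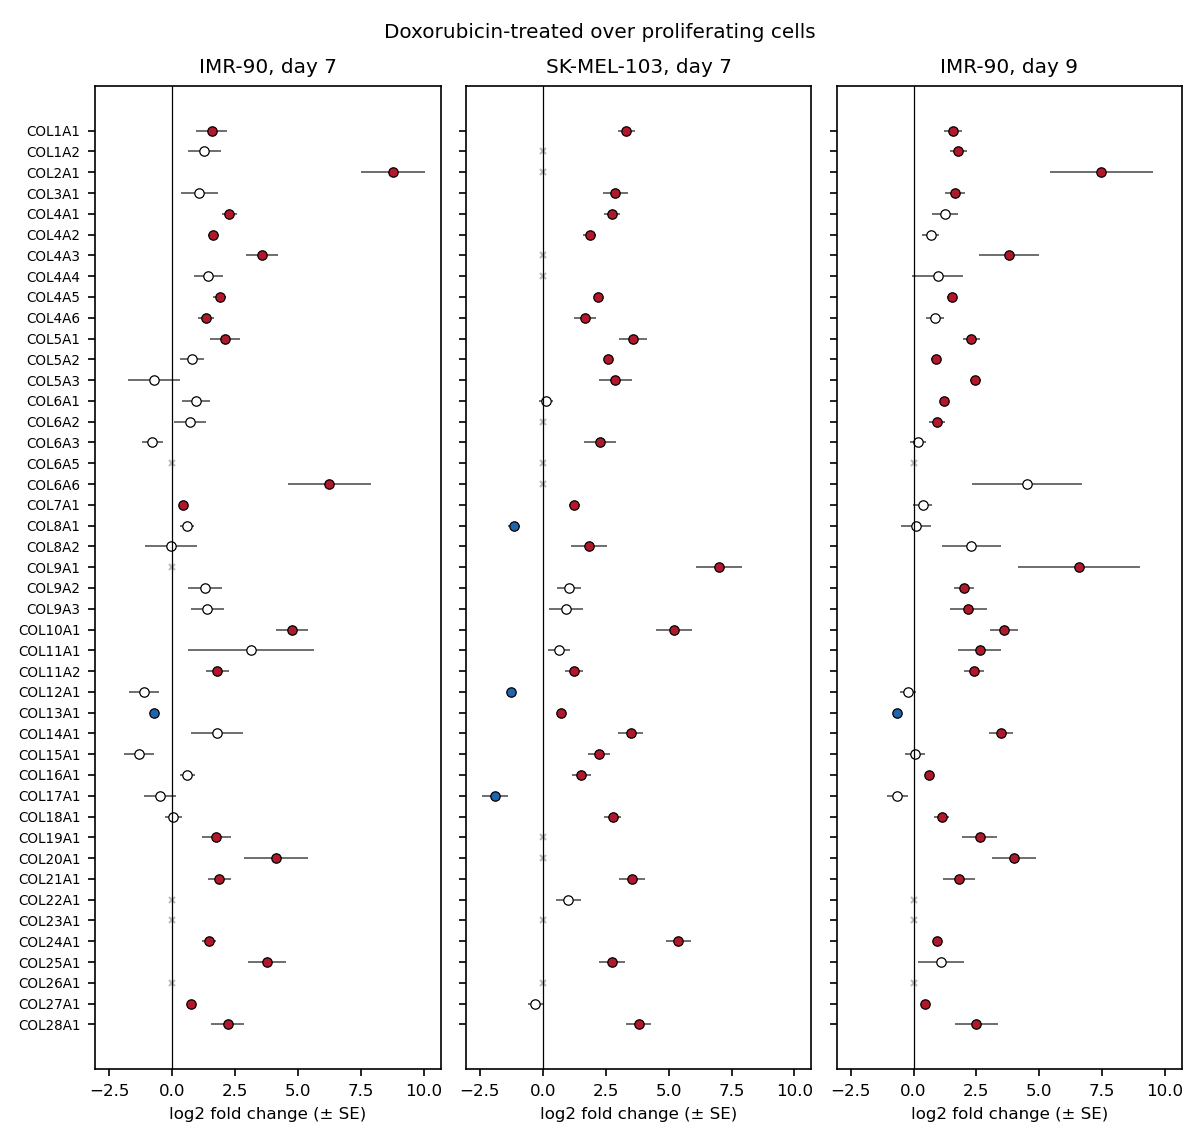
Log2 fold change with its SE (horizontal axis) of every collagen gene (rows, in the order of the numbers in the symbol) in doxorubicin-treated over proliferating cells, for IMR-90 at day 7, SK-MEL-103 and IMR-90 at day 9. Red marks genes called higher, blue genes called lower, open marks genes not called and crosses genes not tested; the red marks run through fibril-forming and type IV rows in all panels, and COL13A1 is blue in both IMR-90 panels and red in SK-MEL-103.

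The genes called higher in all 3 doxorubicin comparisons numbered 8, namely COL1A1, COL4A5, COL5A1, COL10A1, COL11A2, COL21A1, COL24A1 and COL28A1. The treated and proliferating cells of each comparison are its own, so no control is shared. Of the 19 genes called higher in IMR-90 at day 7, 13 were also called higher at day 9 (68.4% of 19 and 50% of 26) and 13 in SK-MEL-103 (68.4% of 19 and 54.2% of 24). Of all genes, 27.4% were called higher in IMR-90 at day 7, 29.8% in SK-MEL-103 and 28.8% at day 9. Their overlap between comparisons is not given, so the overlaps of collagen genes are a description. COL13A1, a transmembrane collagen of cell-matrix contacts, was the 1 gene called in opposite directions.

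Type IV collagen rose in doxorubicin-treated cells of both lines. COL4A1 (chromosome 13, 110148963 to 110307233, minus strand) encodes a chain of the basement membrane network found in nearly all tissues. At day 7 it had 2470, 2976 and 2418 CPM in doxorubicin-treated IMR-90 cells, against 511, 738 and 412 CPM in proliferating cells. Each treated library was more than 3 times as high as any proliferating one; the log2 fold change was 2.27 (SE 0.30, adjusted p = 2.1e-05, edgeR QL test). COL4A2 (chromosome 13, 110305812 to 110513209, plus strand) lies on the opposite strand to COL4A1, and the 126 bases shown above separate their RefSeq starts. The gene bounds given here, from GENCODE, overlap, and those bases lie wholly within the bounds of COL4A2 and partly within those of COL4A1. COL4A2 had 2473, 2707 and 2919 CPM in treated cells, against 789, 1193 and 675 CPM in proliferating cells. Its groups did not overlap either, with a log2 fold change of 1.64 (SE 0.22, edgeR QL adjusted p = 2.6e-05).

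In SK-MEL-103, COL4A1 had 611, 536 and 958 CPM in doxorubicin-treated cells, against 128, 84.5 and 82.9 CPM in proliferating cells, a log2 fold change of 2.74 (SE 0.32, edgeR QL adjusted p = 1.1e-06). COL4A2 had 1324, 1239 and 1922 CPM in treated cells, against 531, 292 and 336 CPM in proliferating cells, a log2 fold change of 1.86 (SE 0.25, edgeR QL adjusted p = 7.6e-06). No treated library of either gene fell within the range of the proliferating ones. The log2 effect of doxorubicin in SK-MEL-103 less the one in IMR-90 was 0.56 for COL4A1 (SE 0.42) and 0.31 for COL4A2 (SE 0.33), and neither difference passed the test.

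COL4A5 and COL4A6 encode chains of basement membranes such as those of kidney and smooth muscle. COL4A5 (chromosome X, 108439844 to 108697545, plus strand) had 147, 167 and 262 CPM in treated IMR-90 cells at day 7, against 48.6, 69.5 and 40.4 CPM in proliferating cells, a log2 fold change of 1.89 (SE 0.25, edgeR QL adjusted p = 2.7e-05). In SK-MEL-103 it had 59.7, 65.3 and 68.0 CPM in treated cells, against 15.1, 12 and 12.8 CPM in proliferating cells, a log2 fold change of 2.17 (SE 0.12, edgeR QL adjusted p = 1e-10). The groups were apart in both lines. COL4A6 (chromosome X, 108155607 to 108439497, minus strand) averaged 35.1 CPM in treated and 14 CPM in proliferating IMR-90 cells and rose there by 1.36 on the log2 scale (SE 0.32, edgeR QL adjusted p = 0.0028). In SK-MEL-103 it averaged 0.391 CPM in treated and 0.093 CPM in proliferating cells, so its call there (log2 fold change 1.68) rests on low counts. COL4A3 rose in IMR-90 on 84 counts in treated against 6 in proliferating libraries, and COL4A4 did not pass the test (log2 fold change 1.43, edgeR QL adjusted p = 0.05).

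At day 9 the type IV pattern was less even. COL4A1 had 1282, 664 and 2132 CPM in doxorubicin-treated cells in DMSO, against 469, 503 and 763 CPM in proliferating cells in DMSO. Treated library 2 lay within the range of the proliferating libraries, and the gene was not called (log2 fold change 1.24, edgeR QL adjusted p = 0.065). The pairing check described under the processing allows the replicate number as a block here, though on weak correlations of 0.156 to 0.298. With this block COL4A1 was called with a log2 fold change of 1.09 (SE 0.20, edgeR QL adjusted p = 0.0008). COL4A2 was called with 0.65 (edgeR QL adjusted p = 0.00047, 0.69 and 0.11 without the block) and COL4A6 with 0.91 (adjusted p = 0.0011, 0.86 and 0.052 without the block). The block called 31 collagen genes higher and 1, COL13A1, lower at day 9, with 69.7% of all genes called. COL4A5 was called in either fit and had 145, 172 and 156 CPM in treated cells, against 74.5, 46.0 and 43.6 CPM in proliferating cells (log2 fold change 1.53).

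**Figure D4:**
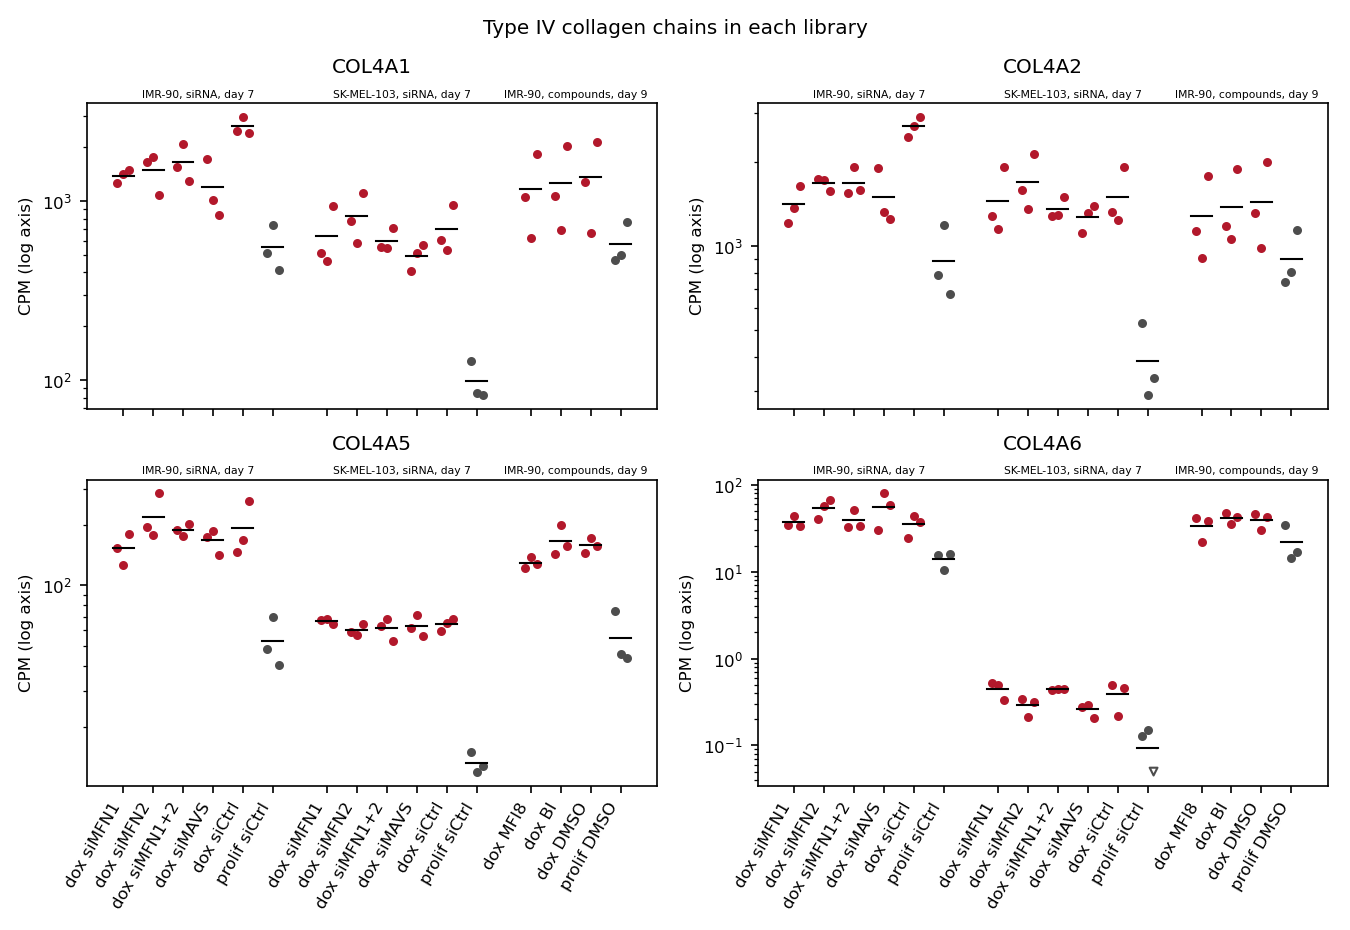
CPM of COL4A1, COL4A2, COL4A5 and COL4A6 (1 panel each, log axis) in every library (points), by group, with group means, in the 3 experiments. Doxorubicin-treated groups with control siRNA lie above their proliferating groups for COL4A1, COL4A2 and COL4A5 at day 7, and the silenced IMR-90 groups lie below the control siRNA group for COL4A2.

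The balance of some paired chains differed between doxorubicin-treated cells with control siRNA or DMSO and proliferating cells. In IMR-90, 3 of 7 ratios between chains had groups that did not overlap at both days. All 7 are of chains of the same collagen type, except COL1A1 to COL3A1. Per kilobase, the ratio of the COL4A2 to the COL4A1 level was 1.06 ± 0.16 in treated IMR-90 cells, against 1.63 ± 0.05 in proliferating cells at day 7 (SD, n = 3 each). In SK-MEL-103 the ratio was 2.20 ± 0.15 in treated cells, against 3.96 ± 0.38 in proliferating cells, and at day 9 it was 1.17 ± 0.30 in treated cells, against 1.59 ± 0.06 in proliferating cells. Every treated library was below every proliferating one in all 3 comparisons, at day 9 narrowly, with 1.51 in the highest treated and 1.52 in the lowest proliferating library. The ratio of COL6A3 to COL6A1, partners in type VI collagen, was 0.128 ± 0.070 in treated and 0.418 ± 0.105 in proliferating IMR-90 cells at day 7, and 0.264 ± 0.046 in treated and 0.542 ± 0.077 in proliferating cells at day 9. In doxorubicin-treated cells with siMFN1, siMFN2, siMFN1+2 and siMAVS its day 7 means were 0.323, 0.516, 0.439 and 0.449. The low day 7 ratio was thus that of the control siRNA group and not of all doxorubicin-treated groups. The ratio of COL5A1 to COL5A2, partners in type V collagen, was 1.75 ± 0.61 in treated and 0.558 ± 0.187 in proliferating IMR-90 cells at day 7. At day 9 it was 1.07 ± 0.33 in treated and 0.397 ± 0.109 in proliferating cells. Without proliferating library 2 the day 7 proliferating means were 0.472 for COL6A3 to COL6A1 and 0.451 for COL5A1 to COL5A2 (n = 2).

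The other ratios did not separate the groups at both days. COL4A5 to COL4A6 was 6.14, 3.90 and 7.24 in treated and 3.21, 6.81 and 2.58 in proliferating cells at day 7, and also overlapped at day 9. COL1A1 to COL1A2 was 1.96 ± 0.27 in treated and 1.61 ± 0.11 in proliferating cells at day 7 (SD, n = 3 each), narrowly apart, but 1.73 ± 0.47 in treated and 2.03 ± 0.34 in proliferating cells at day 9, with overlap. COL1A1 to COL3A1 and COL6A1 to COL6A2 overlapped at both days. These ratios were not part of the fit and carry no test beyond the non-overlapping groups; 3 libraries against 3 in a permutation test could not reach 0.05.

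Fibril-forming collagens were higher in 6 of 11 tested genes in IMR-90 at day 7, in 7 of 9 in SK-MEL-103 and in 11 of 11 at day 9, with none called lower. Of all genes, 27.4%, 29.8% and 28.8% were called higher in that order. The class counts include low genes such as COL2A1 in IMR-90 and are a description. COL1A1 had 15906, 17203 and 24162 CPM in treated IMR-90 cells at day 7, against 4056, 11717 and 3835 CPM in proliferating cells. The groups did not overlap, and the call was marginal (log2 fold change 1.57, SE 0.62, edgeR QL adjusted p = 0.046). It was lost when any 1 library other than proliferating library 2 was left out, with log2 fold changes of 1.29 to 1.69, and it held at 2.30 without that library. COL1A2 had 6729, 6144 and 11310 CPM in treated cells, against 1922, 6327 and 1876 CPM in proliferating cells, where library 2 lay within the treated range and the gene was not called (log2 fold change 1.28, edgeR QL adjusted p = 0.12). COL3A1, the type III chain of elastic tissues, was not called either (log2 fold change 1.08, edgeR QL adjusted p = 0.24). Without proliferating library 2 both were called, COL1A2 with a log2 fold change of 2.11 (edgeR QL adjusted p = 0.025) and COL3A1 with 2.25 (adjusted p = 0.027).

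At day 9, where the proliferating libraries were alike, COL1A1, COL1A2 and COL3A1 all rose. COL1A1 had 7706, 10296 and 16610 CPM in treated cells, against 3306, 4106 and 4282 CPM in proliferating cells, and no library of one group fell within the other. Its log2 fold change was again 1.57 (SE 0.37, edgeR QL adjusted p = 0.0045). COL1A2 averaged 5377 CPM in treated and 1573 CPM in proliferating cells (log2 fold change 1.78, edgeR QL adjusted p = 0.0014), and COL3A1 averaged 720 CPM in treated and 232 CPM in proliferating cells (log2 fold change 1.65, edgeR QL adjusted p = 0.0049).

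In SK-MEL-103 a type I chain rose while its partner stayed at the limit of detection. COL1A1 had 42.2, 36.7 and 58.1 CPM in treated cells, against 5.93, 2.42 and 4.35 CPM in proliferating cells (log2 fold change 3.32, SE 0.33, edgeR QL adjusted p = 1.9e-07). COL1A2 held 11 counts over the 3 treated and 12 over the 3 proliferating libraries and was too low to test. The level of the α2 chain was at most 0.181 CPM in any of the 6 libraries.

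Of the type V chains, which join type I in fibrils, COL5A1 was called higher in all 3 comparisons, and COL5A2 and COL5A3 in SK-MEL-103 and at day 9 but not in IMR-90 at day 7. COL5A1 had 1838, 1641 and 1858 CPM in treated IMR-90 cells at day 7, against 213, 878 and 186 CPM in proliferating cells (log2 fold change 2.09, SE 0.60, edgeR QL adjusted p = 0.0092; 3.18 without proliferating library 2). In SK-MEL-103 it had 308, 310 and 393 CPM in treated cells, against 56.4, 3.54 and 17.5 CPM in proliferating cells (log2 fold change 3.58, SE 0.56, edgeR QL adjusted p = 3.4e-05). The proliferating libraries of both lines differed several-fold from each other, and all treated libraries were above them. COL5A2 had 274, 291 and 302 CPM in treated SK-MEL-103 cells, against 52.7, 37.9 and 42.0 CPM in proliferating cells (log2 fold change 2.61, SE 0.18, edgeR QL adjusted p = 2.3e-09). In IMR-90 at day 7 COL5A2 had 702, 686 and 1481 CPM in treated cells, against 381, 949.7 and 359 CPM in proliferating cells, and was not called (log2 fold change 0.79, edgeR QL adjusted p = 0.19). Without proliferating library 2 it was called (1.40, adjusted p = 0.034), and at day 9 it was called too (0.88).

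COL5A3 turned on the same library. At day 7 it had 5.45, 3.68 and 13.2 CPM in treated IMR-90 cells, against 0.674, 33.9 and 1.76 CPM in proliferating cells, and library 2 was the highest of all 6. The log2 fold change was -0.71 (SE 1.02, edgeR QL adjusted p = 0.58), and without that library it was 2.78 (adjusted p = 0.023). At day 9 COL5A3 averaged 4.62 CPM in treated and 0.846 CPM in proliferating cells (log2 fold change 2.46, edgeR QL adjusted p = 5.7e-06).

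COL24A1 and COL27A1 encode fibril-forming chains of developing bone and cartilage. COL24A1 had 14.9, 12.9 and 21.7 CPM in treated IMR-90 cells at day 7, against 6.51, 6.17 and 5.46 CPM in proliferating cells (log2 fold change 1.47, SE 0.28, edgeR QL adjusted p = 0.00059). In SK-MEL-103 it had 1.82, 2.32 and 3.68 CPM in treated cells, against 0.065, 0.064 and 0 CPM in proliferating cells, on 369 against 7 counts (log2 fold change 5.38, SE 0.49, edgeR QL adjusted p = 3.1e-08). Treated libraries were above proliferating ones in both lines. COL27A1 rose by 0.75 on the log2 scale in IMR-90 at day 7 and was not called in SK-MEL-103 (log2 fold change -0.30). COL2A1, the cartilage fibril chain, held 174 counts in treated and 0 in proliferating IMR-90 libraries at day 7, so it was at least 50.2-fold higher against a floor of 3 counts over the group. At day 9 it held 73 counts in treated and 0 in proliferating libraries, at least 20.2-fold higher.

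Type VI collagen, a filament around connective tissue cells, was not called higher at day 7 in its main chains. COL6A1 had 4383, 2341 and 7861 CPM in treated IMR-90 cells, against 1178, 5202 and 1366 CPM in proliferating cells (log2 fold change 0.94, edgeR QL adjusted p = 0.17). COL6A3 had 848, 1234 and 1976 CPM in treated cells, against 1550, 4086 and 1474 CPM in proliferating cells (log2 fold change -0.78, edgeR QL adjusted p = 0.13). The groups overlapped for both, with proliferating library 2 the highest proliferating library; without it the log2 fold changes were 1.96 for COL6A1 and 1.80 for COL6A2, which were then called (edgeR QL adjusted p of 0.0051 and 0.027), and -0.13 for COL6A3, which was not. At day 9 COL6A1 had 2390, 2721 and 2211 CPM in treated cells, against 1050, 1170 and 971 CPM in proliferating cells, and was called (log2 fold change 1.21, SE 0.17, edgeR QL adjusted p = 0.00017), as was COL6A2 (0.93). COL6A3 was not called at day 9 (log2 fold change 0.18).

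**Figure D5:**
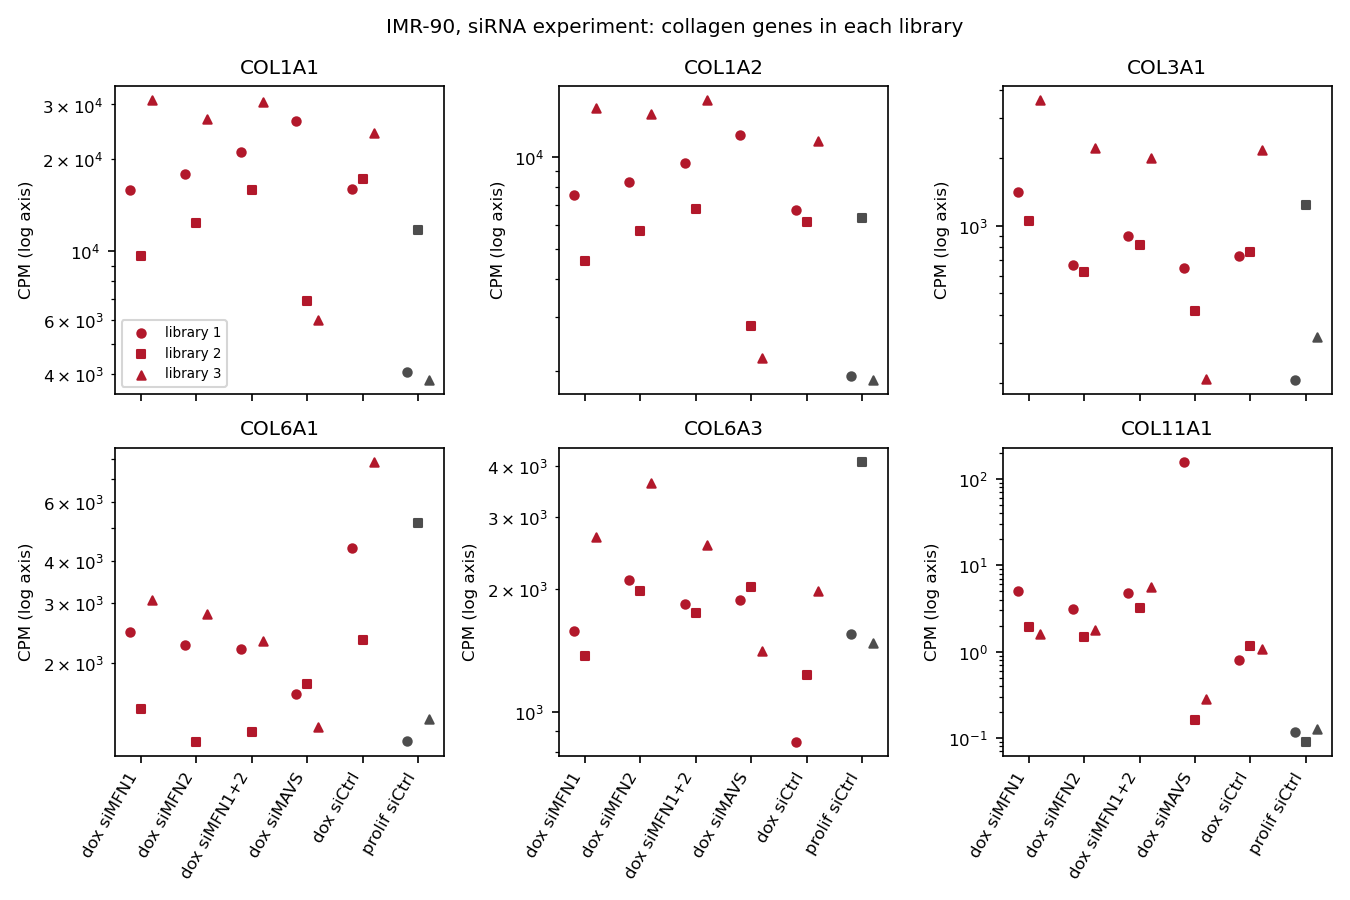
CPM of COL1A1, COL1A2, COL3A1, COL6A1, COL6A3 and COL11A1 (1 panel each, log axis) in every library of the 6 IMR-90 siRNA groups (points, with a marker for each library number). Library 2 is the highest of the proliferating group in the first 5 panels, and library 1 of siMAVS stands at 158 CPM for COL11A1 while its other libraries are at 0.163 and 0.285 CPM.

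The other classes differed more between the lines. COL7A1, the anchoring fibril collagen, had 710, 918 and 702 CPM in treated SK-MEL-103 cells, against 383, 213 and 315 CPM in proliferating cells (log2 fold change 1.26, SE 0.21, edgeR QL adjusted p = 5.4e-05). In IMR-90 at day 7 it had 145, 168 and 165 CPM in treated cells, against 100, 143 and 117 CPM in proliferating cells, a smaller rise (log2 fold change 0.44, edgeR QL adjusted p = 0.045) that was not called at day 9. COL18A1 had 934, 1136 and 871 CPM in treated SK-MEL-103 cells, against 215, 66.5 and 119 CPM in proliferating cells (log2 fold change 2.78, SE 0.33, edgeR QL adjusted p = 1.8e-06). In IMR-90 it was not called at day 7 (log2 fold change 0.05, 0.60 without proliferating library 2) and was at day 9 (1.12).

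COL13A1 had 65.2, 62.8 and 68.8 CPM in treated IMR-90 cells at day 7, against 123, 108 and 104 CPM in proliferating cells (log2 fold change -0.74, SE 0.15, edgeR QL adjusted p = 0.0011). At day 9 it fell by 0.67 on the log2 scale. In SK-MEL-103 it had 202, 209 and 239 CPM in treated cells, against 151, 113 and 106 CPM in proliferating cells (log2 fold change 0.72, SE 0.16, edgeR QL adjusted p = 0.00076). The libraries of the treated and proliferating groups were apart in each case, in opposite directions.

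The genes that fell in SK-MEL-103 were COL12A1, COL8A1 and COL17A1. COL12A1, which binds the surface of type I fibrils, had 87.0, 95.8 and 83.4 CPM in treated cells, against 251, 145 and 203 CPM in proliferating cells (log2 fold change -1.27, SE 0.16, edgeR QL adjusted p = 4.4e-06). COL8A1, a short network-forming chain of vessel walls, averaged 5.10 CPM in treated and 10.7 CPM in proliferating cells (log2 fold change -1.16). COL17A1, a transmembrane collagen of the skin, averaged 1.52 CPM in treated and 4.98 CPM in proliferating cells (log2 fold change -1.91), with groups that overlapped.

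Several genes near the limit of detection were also called. COL10A1, the collagen of hypertrophic cartilage, held 219 counts in treated and 7 in proliferating IMR-90 libraries at day 7 (log2 fold change 4.77). In SK-MEL-103 it held 62 counts in treated and 1 in proliferating libraries, a ratio of 51.9 with a 95% counting interval of 8.97 to 2082. COL9A1 held 53 counts in treated and 0 in proliferating SK-MEL-103 libraries, at least 14.8-fold higher, and COL6A6 held 32 and 0 in IMR-90 at day 7, at least 9.24-fold higher. COL20A1 held 46 and 2 counts in treated and proliferating IMR-90 libraries at day 7, a ratio of 19.9 (5.21 to 169). Intervals and floors cover counting error only. COL19A1, COL21A1, COL25A1 and COL28A1 were also called higher in IMR-90 at day 7, with log2 fold changes of 1.75 to 3.76 and means below 2 CPM.

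The remaining calls were of the same sign. In SK-MEL-103 COL3A1, COL5A3, COL6A3, COL8A2, COL11A2, COL14A1, COL15A1, COL16A1, COL21A1, COL25A1 and COL28A1 were called higher, with log2 fold changes of 1.23 to 3.80; of these, COL11A2 and COL16A1 had means above 1 CPM in treated cells. At day 9 COL5A3, COL9A1, COL9A2, COL9A3, COL11A1, COL11A2, COL14A1, COL16A1, COL19A1, COL20A1, COL21A1, COL24A1, COL27A1, COL28A1, COL4A3 and COL10A1 were called higher. Of those, COL16A1, a fibril-associated collagen, had 150, 128 and 133 CPM in treated cells, against 69.8, 106 and 92.1 CPM in proliferating cells (log2 fold change 0.63, edgeR QL adjusted p = 0.0035).

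The effect of doxorubicin was called different between the lines for 8 of 41 tested collagen genes, 19.5%, against 22.2% of all genes. The difference, taken as the log2 effect in SK-MEL-103 less the one in IMR-90, was positive for 7: COL24A1 (4.03), COL15A1 (3.66), COL6A3 (3.14), COL18A1 (2.83), COL5A2 (1.92), COL13A1 (1.55) and COL7A1 (0.91). It was negative for COL8A1 (-1.67). Without proliferating IMR-90 library 2 the calls of COL5A2, COL6A3, COL7A1 and COL15A1 were lost and 4 genes were called in all. The share of all genes called in that fit is not given.

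Genes that act on collagen are described in lists drawn up by role, each read against the 51.8%, 60.4% and 55.9% of all genes called in IMR-90 at day 7, SK-MEL-103 and IMR-90 at day 9. Of 21 genes for chain modification and folding, 11 were higher and 2 lower in treated IMR-90 cells at day 7 (61.9% called), 6 and 4 of 20 tested in SK-MEL-103 (50%), and 10 and 2 at day 9 (57.1%), shares near those of all genes. P4HA2, a prolyl hydroxylase subunit, averaged 363 ± 73 CPM in treated and 86.4 ± 41.8 CPM in proliferating IMR-90 cells (SD, n = 3 each; log2 fold change 2.10, edgeR QL adjusted p = 0.00028) and rose by 1.30 in SK-MEL-103 and 1.85 at day 9. TMEM38B, an endoplasmic reticulum cation channel needed for collagen modification, fell by 0.79 in IMR-90 at day 7, by 2.03 in SK-MEL-103 and by 0.55 at day 9 on the log2 scale. Of 13 genes for procollagen secretion 4 were higher and 1 lower at day 7 (38.5%), and 4 and 2 both in SK-MEL-103 and at day 9 (46.2%), below the shares of all genes; MIA3 (TANGO1), which loads procollagen into carriers, rose by 0.59, 0.61 and 0.66 on the log2 scale.

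Of 12 tested genes for propeptide removal and crosslinking 6 were higher and 1 lower in IMR-90 at day 7 (58.3%), 7 and 2 in SK-MEL-103 (75%), and 7 and 0 at day 9 (58.3%). BMP1, which removes the C-terminal propeptide, had 404, 417 and 421 CPM in treated SK-MEL-103 cells, against 89.6, 40.3 and 62.5 CPM in proliferating cells (log2 fold change 2.59, edgeR QL adjusted p = 3.9e-08). Its enhancer PCOLCE fell by 2.00 on the log2 scale in IMR-90 at day 7. Of the genes for collagen breakdown and its inhibitors, 6 were higher and 1 lower of 17 tested in IMR-90 at day 7 (41.2%), 8 and 3 of 13 in SK-MEL-103 (84.6%), and 8 and 0 of 18 at day 9 (44.4%). The collagenase inhibitor TIMP2 and the gelatinase MMP2 rose by 2.00 and 2.09 in SK-MEL-103.

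Among collagen receptors 2 of 7 tested were higher in IMR-90 at day 7 (28.6%), 2 of 6 in SK-MEL-103 with 1 lower (50%), and 5 of 7 at day 9 (71.4%). DDR1, a receptor tyrosine kinase that binds collagen, rose by 1.48, 2.29 and 1.07 in IMR-90 at day 7, SK-MEL-103 and IMR-90 at day 9. Of fibril-associated proteins 9 of 14 (64.3%), 7 of 10 (70%) and 13 of 14 tested (92.9%) were higher in the same order, with none lower. Of 15 TGF-beta genes 6 were higher and 3 lower at day 7 (60%), 9 and 2 in SK-MEL-103 (73.3%), and 6 and 2 at day 9 (53.3%); the ligand TGFB2 rose by 3.10, 1.95 and 2.10, while the signal mediator SMAD4 fell by 0.95, 0.29 and 0.77. The median log2 fold change of the lists ran from -0.02 for receptors in SK-MEL-103 to 1.86 for fibril-associated proteins at day 9.

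With siMFN1, 2 collagen genes were called in doxorubicin-treated IMR-90 cells, and with no other silencing was any called. Both calls were marginal and were lost whenever 1 library was left out. In these cells siMFN1 had 1 gene higher and 1 lower than control siRNA, of 39 tested, against 1.58% of all genes called. No collagen gene was called with siMFN2 (0.225% of all genes), siMFN1+2 (1.57%) or siMAVS (0.634%). With siMFN1, siMFN2, siMFN1+2 and siMAVS, 6, 9, 3 and 12 of the 39 had an unadjusted p below 0.05. Of all 19077 genes tested, 2999, 2569, 3124 and 2875 did, in the same order. In SK-MEL-103 none of 33 was called with siMFN1 (0.123% of all genes), siMFN2 (0.0669%), siMFN1+2 (0.24%) or siMAVS (0.1%), with 2, 4, 2 and 4 genes at an unadjusted p below 0.05. Of all 17945 genes tested there, 1028, 615, 738 and 650 were below it. The 4 silenced groups of a line share their control libraries.

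The type IV pair was the lower one in silenced IMR-90 cells. COL4A2 had 1209, 1374 and 1649 CPM with siMFN1, 1746, 1724 and 1576 CPM with siMFN2, 1552, 1920 and 1584 CPM with siMFN1+2, and 1906, 1329 and 1253 CPM with siMAVS, against 2473, 2707 and 2919 CPM with control siRNA. All 12 silenced libraries were below the 3 control libraries, which all 4 comparisons share. The log2 fold change was -0.94 with siMFN1 (SE 0.22, edgeR QL adjusted p = 0.044), which was called, and -0.70 (adjusted p = 0.18), -0.68 (0.12) and -0.87 (0.077) with siMFN2, siMFN1+2 and siMAVS, which were not. The siMFN1 call was lost whenever 1 library was left out, with log2 fold changes of -1.06 to -0.84.

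COL4A1 had 1258, 1414 and 1501 CPM with siMFN1, 1658, 1767 and 1086 CPM with siMFN2, 1561, 2101 and 1292 CPM with siMFN1+2, and 1732, 1016 and 841 CPM with siMAVS, against 2470, 2976 and 2418 CPM with control siRNA. Its groups did not overlap the control either, and no silencing was called (log2 fold changes of -0.92, -0.81, -0.67 and -1.15, edgeR QL adjusted p of 0.13, 0.23, 0.25 and 0.077). Without siMAVS library 1 both were called lower with siMAVS, COL4A1 with a log2 fold change of -1.51 (edgeR QL adjusted p = 0.031) and COL4A2 with -1.08 (adjusted p = 0.043). COL7A1 had 220, 267 and 313 CPM with siMFN1, against 145, 168 and 165 CPM with control siRNA, and was called higher (log2 fold change 0.74, SE 0.17, edgeR QL adjusted p = 0.048). That call too was lost in each fit without 1 library. With siMFN2, siMFN1+2 and siMAVS COL7A1 averaged 147, 151 and 177 CPM.

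COL11A1, a minor fibril chain, had 158, 0.163 and 0.285 CPM with siMAVS, against 0.80, 1.15 and 1.07 CPM with control siRNA. Library 1 stood far above all others and the remaining siMAVS libraries were below the control; the log2 fold change was 5.72 (edgeR QL adjusted p = 0.096), and without library 1 it was -2.17. The same library had 4.48% of counts in collagen genes, against 2.14 and 1.72% in the other siMAVS libraries and 3.93 to 5.69% with control siRNA.

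Libraries of the same replicate number deviated together in the mitofusin comparisons of both lines, in SK-MEL-103 with siMAVS and at day 9, there only weakly with doxorubicin. With that number as a block in the fit over all groups, COL7A1 was called higher and COL4A2 and COL4A4 lower with siMFN1 in IMR-90 (3.8% of all genes called), COL8A1 lower with siMFN2 (1.18%), no collagen gene with siMFN1+2 (3.62%), and COL5A3, a type V chain, higher with siMFN1 in SK-MEL-103 (0.418%). The fit of only the 2 groups compared with the same block was added after the results were seen and called many more genes. In IMR-90, of 37 collagen genes tested, 7 were higher and 7 lower with siMFN1 (37.8%, against 17.9% of all genes). With siMFN2, of 38 tested, 7 were higher and 8 lower (39.5%, against 14.8%), and with siMFN1+2, of 39 tested, 4 were higher and 5 lower (23.1%, against 18%).

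The 3 fits share their control libraries. COL6A1 and COL12A1 are given as examples chosen after their values were seen, and neither was called with the block over all groups. COL6A1 had 2466, 1459 and 3063 CPM with siMFN1, 2256, 1172 and 2782 CPM with siMFN2, and 2197, 1246 and 2330 CPM with siMFN1+2, against 4383, 2341 and 7861 CPM with control siRNA. Each silenced library was below the control library of its own number, though siMFN1 and siMFN2 overlapped the control as groups. Its log2 fold changes in the blocked fits were -0.96, -1.17 and -1.22 (edgeR QL adjusted p of 0.0057, 0.0016 and 0.0023). COL12A1 had 534, 546 and 1460 CPM with siMFN1, 287, 435 and 1336 CPM with siMFN2, and 296, 381 and 795 CPM with siMFN1+2, against 129, 272 and 510 CPM with control siRNA. It was above the control library of the same number in every case, with log2 fold changes of 1.52, 1.06 and 0.77 (edgeR QL adjusted p of 0.00044, 0.0016 and 0.005).

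In SK-MEL-103 the blocked fits of 2 groups called 8 genes higher and 3 lower of 32 with siMFN1 (34.4%, against 19% of all genes), 5 and 4 of 31 with siMFN2 (29.0%, against 6.78%) and 5 and 1 of 32 with siMFN1+2 (18.8%, against 8.49%). COL5A3 had 1.59, 1.37 and 1.01 CPM with siMFN1, against 0.560, 0.614 and 0.217 CPM with control siRNA, with a blocked log2 fold change of 1.48 (edgeR QL adjusted p = 0.00043). It had 0.331, 0.148 and 0.106 CPM with siMFN2 and 0.979, 1.09 and 0.552 CPM with siMFN1+2, with blocked log2 fold changes of -1.15 and 0.87. The 2 single silencings were therefore on opposite sides of the control in this fit. COL9A3 showed the same pattern, with 31.9, 32.0 and 25.5 CPM with siMFN1, 12.1, 18.5 and 8.45 CPM with siMFN2 and 22.4, 27.2 and 12.2 CPM with siMFN1+2, against 15.3, 22.8 and 9.47 CPM with control siRNA (blocked log2 fold changes of 0.95, -0.28 and 0.41). COL9A3 shares 45 exon bases with TCFL5 on the opposite strand.

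With siMAVS the 2-group blocked fits called no collagen gene in either line, with 0% of all genes called in IMR-90 and 0.0604% in SK-MEL-103. Over all groups the block called COL4A1 and COL4A4 lower with siMAVS in IMR-90 (2.14% of all genes), where the numbers did not pair the libraries. The effects of silencing were not called different between the lines for any of 41 collagen genes, with 0.153% of all genes called for siMFN1, 0.0431% for siMFN2, 0.144% for siMFN1+2 and 0.0431% for siMAVS, and 4, 4, 0 and 2 collagen genes at an unadjusted p below 0.05. Of all 20892 genes tested for these differences, 1931, 1295, 1854 and 1610 were below it. Of the genes that act on collagen, DDR1 alone was called: it fell by 1.41 on the log2 scale with siMFN1 in IMR-90 (edgeR QL adjusted p = 0.0037) and by 0.90 with siMFN1+2 (adjusted p = 0.034).

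No collagen gene passed the test with either compound. COL1A1 had 6116, 9010 and 12714 CPM with MFI8 at 20 µM and 6822, 12532 and 14651 CPM with BI at 10 µM, against 7706, 10296 and 16610 CPM with DMSO. COL4A1 had 1059, 623 and 1844 CPM with MFI8 and 1068, 688 and 2045 CPM with BI, against 1282, 664 and 2132 CPM with DMSO. The groups overlapped for both genes. The log2 fold change of COL1A1 was -0.31 (SE 0.36) with MFI8 and -0.03 (SE 0.36) with BI, and that of COL4A1 was -0.21 (SE 0.52) with MFI8 and -0.10 (SE 0.52) with BI, so each of these changes is smaller than its SE in this fit, which does not use the replicate number. With MFI8 both COL1A1 and COL4A1 were below the DMSO library of the same number in all 3 cases. No collagen gene of 40 tested was called with MFI8 against DMSO, BI against DMSO or MFI8 against BI, where edgeR called 0% of all genes in each. COL9A2 with MFI8 against DMSO and COL24A1 with MFI8 against BI had an unadjusted p below 0.05, and no collagen gene did with BI against DMSO. Of all 19056 genes tested, 371, 326 and 175 did in these comparisons, in the same order. The doses of MFI8 and BI differ, so their direct comparison is not one of matched doses.

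The fit of only the 2 groups compared with the replicate block called 7 of 39 collagen genes lower with MFI8 than with DMSO and none higher (17.9%, against 2.75% of all genes). Libraries of the same number deviated together here (correlations of 0.826 to 0.925). The 7 genes were COL3A1, COL4A5, COL5A1, COL5A2, COL8A2, COL12A1 and COL15A1. COL3A1 had 311, 430 and 678 CPM with MFI8, against 442, 718 and 1001 CPM with DMSO, lower in each library than in the DMSO library of its number (log2 fold change -0.60, edgeR QL adjusted p = 0.0023). With BI it had 365, 876 and 882 CPM, on both sides of DMSO. COL17A1 was the 1 gene called with BI (log2 fold change -0.51, edgeR QL adjusted p = 0.029; 3.84% of all genes), and none was called with MFI8 against BI (0.539%).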

How the data were processed

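RNeasy columns, a stranded mRNA library kit and 10 PCR cycles were used, per the labels' protocols. The authors deposited raw counts per gene, whole numbers with no normalization. Trim Galore 0.6.7, STAR 2.7.10a, featureCounts and GRCh38 are named, per the submitters' processing notes; the annotation release, the strand setting, the treatment of multimapping reads and any filter are not given in the sources used here. Symbols matched 48880 of 48898 identifiers. Positions, exon overlaps and transcript lengths are from GENCODE 29, which may not be the release counted, and promoter windows from RefSeq on GRCh38.p14, where 32 of 44 collagen genes matched. There are no molecular identifiers.

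The edgeR 4.0.16 package (R 4.3.3, limma 3.58.1) gave the main test: filterByExpr, TMM scaling and the quasi-likelihood F test over all groups of an experiment, or over both siRNA experiments for differences between lines, with group as the only term. P-values were adjusted by Benjamini and Hochberg over all genes tested, and a gene was called below 0.05. There were 14 comparisons within experiments, 5 differences of effects between lines and 2 comparisons of levels between lines. The SE of a log2 fold change is its size divided by the root of the F statistic. A fold against a group at 0 uses a floor of 3 counts over the group, and ratios on 1 to 3 counts carry an exact 95% interval. The fit was tested on simulated data.

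The collagen genes, classes and lists were chosen with earlier results of these data known. Named are all genes called, with values for the 6 highest and 6 lowest where more than 12 were called, genes at 10 CPM or more, and up to 2 highest and 2 lowest called genes of each list; low genes are given by counts.

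Groups share replicate numbers, and no label says what a number marks. Libraries of number 3 carry names from a later numbered range in all IMR-90 siRNA groups except siMAVS, which has no library in that range. One SK-MEL-103 siMFN2 library has none and was taken as number 1. Deviations from the group means of same-numbered libraries correlated above 0.1 in every pair in 11 of 14 comparisons, from -0.593 to 0.948 over 16648 genes; the exceptions were doxorubicin against proliferating cells at day 7 in both lines and siMAVS in IMR-90. The numbers also track depth: number 1 holds 53390716 to 79204217 counts, number 2 holds 30176556 to 50828283 and number 3 holds 15206115 to 31127306. No library was a copy of another of its group (48 pairs, smallest chi-square per degree of freedom 11.1).

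Alternatives were DESeq2 1.42.0, its size factors in edgeR, no filter, the replicate block, the library number range as a covariate, only the 2 groups compared, each library left out and, chosen after seeing the data, edgeR's legacy fit and the 2-group fit with the block.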

Additional observations from a re-analysis of the deposited data

Results flagged for a closer look

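The effect of doxorubicin was called different between the lines for 8 of 41 tested collagen genes, 19.5%, against 22.2% of all genes. The edgeR quasi-likelihood test was of the difference itself, with Benjamini-Hochberg adjustment over all genes. Each value is the log2 effect in SK-MEL-103 less the one in IMR-90. COL24A1 had a difference of 4.03 (SE 0.65, adjusted p = 5.1e-05) and COL18A1 one of 2.83 (SE 0.49, adjusted p = 0.00014). For COL13A1, lower in treated IMR-90 and higher in treated SK-MEL-103 cells, it was 1.55 (SE 0.23, adjusted p = 1.9e-05). COL8A1 had -1.67 (SE 0.38, adjusted p = 0.0020). The values were 3.66 for COL15A1 (adjusted p = 0.020), 3.14 for COL6A3 (0.025), 1.92 for COL5A2 (0.010) and 0.91 for COL7A1 (0.020), and these 4 calls were lost without proliferating IMR-90 library 2. COL15A1 and COL6A3 had means below 1 CPM in SK-MEL-103. No label names a technical batch within a line; what the replicate number and the library number range mark is not stated. With the replicate number as a block 10 genes were called. Treated and proliferating libraries did not pass the pairing check in either line, and the share of all genes called with this block is not given. Line and experiment cannot be told apart.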

How the results depend on the processing

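With 3 libraries a group, a missed threshold does not show that levels were alike, and genes below 1 CPM rest on few counts. Among collagen genes, 925 of the values from fits without 1 library kept direction and call, 89 lost the call, 13 gained one and 5 reversed. These were COL11A1 with siMAVS (-2.17 to 6.31 over the libraries left out) and, with doxorubicin in IMR-90 at day 7, COL5A3 (-1.39 to 2.78) and COL18A1 (-0.27 to 0.60, 3 of the 5). In the same comparison COL5A3, -0.71 as reported, was 1.33 with the 2 groups and the replicate block, and COL18A1, 0.05 as reported, was -0.000771 with the replicate block and -0.027 with the library number range as a term. The causes were not tested.

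The number of collagen genes called with siMFN1 in IMR-90, 2 as reported, was 1 with DESeq2 size factors in edgeR, 1 with no filter, 0 with the legacy fit, 0 with only the 2 groups and 14 with the 2 groups and the replicate block. From 0 as reported, siMFN2 had 1 with the replicate block and 15 with the 2 groups and the block. For siMFN1+2 it was 1 with DESeq2 and 9 with the 2 groups and the block. For siMAVS in IMR-90 it was 2 with the block, 3 with the library number range as a term and 3 with DESeq2. In SK-MEL-103 siMFN1 had 1 with no filter, 1 with the block and 11 with the 2 groups and the block, where siMFN2 had 9 and siMFN1+2 had 6. MFI8 had 7 and BI 1 with the 2 groups and the block, and the line difference of siMFN2 had 1 with the block. Other counts of calls stayed within 1.5 times with the block.

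With 1 library left out the numbers called ran from 16 to 29 for doxorubicin in IMR-90 at day 7, 26 to 28 in SK-MEL-103, 18 to 29 at day 9, 4 to 12 for the line difference of doxorubicin, 25 to 29 between proliferating and 31 to 34 between treated lines, 0 to 2 for siMAVS in IMR-90, 0 to 1 for its line difference, and 0 to 0 for siMFN1 and the rest. The shares of all genes called in these fits are not given, so the ranges are a description.

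Without COL1A1 the collagen share was 2.34% with siMFN1, 2.32% with siMFN2, 2.42% with siMFN1+2, 2.74% with control siRNA, 1.64% with MFI8, 1.81% with BI and 1.82% with DMSO after doxorubicin, and 0.818% in proliferating cells in DMSO. In proliferating IMR-90 cells with control siRNA it was 1.36% (SD 0.88%).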
